A study of Mus musculus with 86 samples.

Results

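Interferon-stimulated genes were followed in mouse heart, across 4 lines of mice with and without isoproterenol. The members are 37 genes listed for their known induction by interferon. Of the 37, 35 were read by at least 1 probe set that names a single gene, through 50 probe sets in all, and each gene was represented by its probe set with the highest mean across the 8 groups. Isg15 was read only by a probe set shared with Gm9706, and Ifi44 by none listed, so neither has a value here. A further 5 members, Oas3, Oasl1, Mx1, Mx2 and Dhx58, had a group mean below the array median in each of the 8 groups and were not tested. The other 30 members were tested among 11961 genes, of 18193 that a single-gene probe set read.

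The study hybridised heart RNA to 86 Affymetrix arrays. Mice of the inbred lines FVB and C57BL/6, both wild type per the labels, of a line called B2KO, and of wild-type B6129SF2/J, a hybrid line, were assigned at random to no treatment or to isoproterenol, an agonist of beta-adrenergic receptors, infused at 120 µg/g/day for 14 days. The labels do not say what B2KO lacks, and they give neither the age nor the vehicle, so untreated mice are the only control. FVB had 10 untreated arrays with 12 treated ones, C57BL/6 had 11 with 10, B2KO had 10 with 10, and B6129SF2/J had 10 with 12, after treated B2KO arrays 4 and 9 were averaged and counted as 1 sample, since they differed by less than the noise between any other arrays (r = 0.9999997632, next highest pair 0.982). Labels speak of separate mice but tie no array to one, so p-values measure the spread between arrays. Per the series design, FVB and B2KO mice developed systolic dysfunction under infusion and C57BL/6 mice diastolic dysfunction. The B6129SF2/J mice were the separate group in which a predictor was applied.

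Interferons are cytokines of antiviral defence. Type I interferons bind a receptor whose Janus kinases switch on the complex ISGF3, which holds STAT2 and IRF9 and binds the interferon-stimulated response element (ISRE) in promoters. Interferon gamma acts mainly through gamma-activated sites (GAS). The induced genes encode transcription factors that widen the response, sensors of viral RNA or DNA, effectors that block viral entry, translation or replication, GTPases that attack the vacuoles of pathogens, and a protease, USP18, that shuts the receptor off. In heart, the pathway is known from viral myocarditis and from sterile injury, where nucleic acids of dying cells can set it off.

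The promoter letters of the members were also read, apart from the arrays. RefSeq promoter windows of assembly GRCm38.p6 were on hand for 26 of the 37 members, in 30 windows, and the 250 bases before each start were searched on both strands for the ISRE core, which is GAAA and, after any 2 bases, a second GAAA (TTTC in place of GAAA when read on the other strand), and for the GAS core TTCNNNGAA, which is its own reverse complement. The ISRE core was in 13 of the 30 member windows, or 43.3%, against 2.98% of all 32851 windows. The GAS core was in 6 of the 30, or 20%, against 7.02% of all. The following stretches, written 5′ to 3′ on the strand of the gene and all upstream of its start, are shown because they hold that core, in capitals, before genes whose values are described below. Stat2 lies on chromosome 10 (stretch chr10:128270261-128270300, plus strand), Rsad2 on chromosome 12 (chr12:26456548-26456587, minus), Ifit1 on chromosome 19 (chr19:34640785-34640828, plus), Bst2 on chromosome 8 (chr8:71537572-71537611, minus), Irgm1 on chromosome 11 (chr11:48871421-48871459, minus), Gbp2 on chromosome 3 (chr3:142620589-142620628, plus) and Cxcl10 on chromosome 5 (chr5:92349078-92349117, minus).
Stat2: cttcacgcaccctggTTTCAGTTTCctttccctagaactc
Rsad2: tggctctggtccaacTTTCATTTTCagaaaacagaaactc
Ifit1: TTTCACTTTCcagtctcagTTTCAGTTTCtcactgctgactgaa
Bst2: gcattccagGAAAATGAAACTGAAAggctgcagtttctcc
Irgm1: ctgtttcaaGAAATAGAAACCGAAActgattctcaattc
Gbp2: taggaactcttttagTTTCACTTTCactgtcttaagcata
Cxcl10: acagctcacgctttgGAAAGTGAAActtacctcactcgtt
The Ifit1 stretch holds 2 separate cores, and those of Bst2 and Irgm1 hold 2 that overlap, so that 1 GAAA serves both. Of the 26 members with a window, 13 held the ISRE core. Among members with changes described below, none was found for Irf7, Irf9, Irf1, Cmpk2, Oasl2, Ifih1, Ifit2, Ifitm1, Ifitm3, Eif2ak2 or Xaf1. This says only that these letters are not in these 250 bases. Several members are chromosomal neighbours: Ifit1, Ifit2 and Ifit3 on chromosome 19, Oas1a, Oas2 and Oas3 on chromosome 5, Rsad2 and Cmpk2 on chromosome 12, Parp9 and Parp14 on chromosome 16, Gbp2 and Gbp3 on chromosome 3, and Ifitm1 and Ifitm3 on chromosome 7.

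Levels are log2 of the deposited intensity, for which every array has a median of 1, so a level of 0 is the array's median. A level is compared only between arrays on the same probe set, since probe sets differ in brightness. The range of a group runs from its lowest to its highest array. Differences are log2 differences between group means ± SE from 1 limma fit over all 8 groups, and a gene is called at a two-sided Benjamini-Hochberg adjusted p under 0.05 over the 11961 genes tested.

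Some arrays stood apart. Treated B2KO replicate 10 correlated with the rest at a median of only 0.573, where no other array had a median under 0.831, and it was the lowest array of its group at 14 of the 30 members. On 200 strain marker probe sets, chosen for separating FVB from C57BL/6, the array labelled treated FVB replicate 2 went against its label: its root mean square distance (log2) was 3.09 from the medians of FVB and 1.05 from those of C57BL/6. Treated B2KO replicate 7 lay nearly as close to B6129SF2/J as to B2KO, at 1.79 against 1.62. In 5 arrays the 3′ Gapdh control exceeded the 5′ one by more than 2 log2 units, which marks shortened RNA: untreated C57BL/6 replicate 11, untreated B2KO replicate 8, untreated and treated B6129SF2/J replicates 8 and 7, and untreated FVB replicate 10. Results are given with all arrays. Counts without the failed array, without the 3 failed or in doubt by strain, or without all 8 stand beside many of them or in the closing section. For the untreated comparisons with C57BL/6, counts are given only without the failed array, and medians without all 8.

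Untreated hearts of C57BL/6 had the highest levels of most members. The mean of the untreated C57BL/6 arrays was the highest of the 4 lines for 24 of the 30 members tested and the lowest for none, and B2KO held the lowest mean for 12, B6129SF2/J for 10 and FVB for 8. Against FVB, 7 members were higher in C57BL/6 and none lower, where 7.81% of all genes tested were higher and 4.39% lower. B2KO was lower than C57BL/6 at 8 members and higher at none, where 5.29% of all genes were lower and 4.65% higher. B6129SF2/J was lower than C57BL/6 at 7 and higher at none, where 4.08% of all genes were lower and 3.59% higher. These 3 comparisons share the 11 untreated C57BL/6 arrays, so they are not separate evidence. The median difference of the members was 0.37 for C57BL/6 minus FVB, −0.50 for B2KO minus C57BL/6 and −0.48 for B6129SF2/J minus C57BL/6, beside medians over all genes of 0.03, 0.05 and 0.11. Without all 8 doubtful arrays the member medians were 0.36, −0.49 and −0.49, beside −0.02, 0.09 and 0.12 over all genes. In RNA of hearts, more RNA per cell and more cells of a type cannot be told apart. Probes over a strain polymorphism can also read low with no change of RNA, which was not tested for these probe sets.

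Cmpk2, Oasl2 and Rtp4 were called above each of the other lines in C57BL/6. Cmpk2, a mitochondrial nucleotide kinase, read 0.26 to 1.88 (median 1.11) in FVB, 1.55 to 3.14 (median 2.62) in C57BL/6, 0.28 to 3.05 (median 0.90) in B2KO, and 0.06 to 2.21 (median 1.55) in B6129SF2/J. Of the 11 untreated C57BL/6 arrays, 10 lay above the highest FVB array and 10 above the highest B6129SF2/J array, and 2 above the highest B2KO array, which is the replicate with shortened RNA. The differences were 1.49 ± 0.29 for C57BL/6 minus FVB, with an adjusted p of 9.62e-05, −1.50 ± 0.29 for B2KO minus C57BL/6 and −1.18 ± 0.29 for B6129SF2/J minus C57BL/6. Cmpk2 has a second probe set near the array median, on which these differences were 0.36, −0.12 and 0.14. Oasl2, a 2′-5′-oligoadenylate synthetase-like protein, read 0.83 to 3.36 (median 2.21) in FVB, 1.96 to 3.89 (median 3.14) in C57BL/6, −0.75 to 2.92 (median 2.08) in B2KO, and 1.25 to 2.68 (median 1.53) in B6129SF2/J. Its C57BL/6 arrays overlapped with those of each other line, and 8 of the 11 lay above the highest B6129SF2/J array. The differences were 1.12 ± 0.32 against FVB, and −1.25 and −1.41 for B2KO and B6129SF2/J against C57BL/6. Rtp4, a receptor transporter protein that restrains viral replication, read 2.19 to 4.11 (median 3.00) in FVB, 3.01 to 4.45 (median 3.78) in C57BL/6, 1.65 to 4.12 (median 3.01) in B2KO, and 2.45 to 3.84 (median 2.92) in B6129SF2/J. All 11 C57BL/6 arrays lay above the median of each other line, with differences of 0.74 ± 0.24 against FVB (adjusted p of 0.0317), and of −0.84 and −0.77 for B2KO and B6129SF2/J minus C57BL/6. Leaving out any 1 of 6 arrays ended the call against FVB, and any 1 of 10 that for B6129SF2/J. With the probe sets of a gene averaged, the Rtp4 difference from FVB was 0.35, with an adjusted p of 0.279, and its second probe set was near the array median. Averaging also left the Cmpk2 difference of B6129SF2/J from C57BL/6 uncalled.

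Ifit3, Usp18, Ifih1 and Irf9 were called in 2 of the 3 comparisons with C57BL/6. Ifit3, of the family that binds foreign RNA and blocks its translation, read 1.09 to 3.35 (median 1.93) in FVB, 2.06 to 3.96 (median 3.44) in C57BL/6, 1.12 to 2.15 (median 1.98) in B2KO, and 2.25 to 3.52 (median 2.81) in B6129SF2/J. All 11 C57BL/6 arrays lay above the FVB median and the B2KO median, and 10 above the highest B2KO array. The difference was 1.31 ± 0.24 for C57BL/6 minus FVB (adjusted p of 3.42e-05) and −1.48 ± 0.24 for B2KO minus C57BL/6. B6129SF2/J lay between, at 0.94 ± 0.25 above B2KO, the only member called between those lines, where 2.69% of all genes were higher and 1.97% lower. Between these lines 1 member was higher and 2 were lower without the failed array, 1 and 3 without 3 arrays, and 1 and 1 without 8. Over all genes the shares were 5.08% and 2.96%, 5.23% and 3.24%, and 4.58% and 3.61%. Ifit3 was also 0.77 ± 0.25 above FVB, where 4.83% of all genes were higher, a call lost on leaving out any 1 of 14 arrays. Usp18, the protease that removes ISG15 and damps the type I receptor, read −0.60 to 1.33 (median 0.03) in FVB, 0.53 to 2.27 (median 1.36) in C57BL/6, −1.40 to 1.15 (median 0.55) in B2KO, and −0.20 to 1.28 (median 0.70) in B6129SF2/J. It was 1.25 ± 0.29 higher in C57BL/6 than in FVB and −1.21 in B2KO minus C57BL/6. Ifih1, the RNA sensor MDA5, read 0.80 to 2.56 (median 1.78) in FVB, 1.95 to 3.13 (median 2.79) in C57BL/6, 1.07 to 3.04 (median 1.71) in B2KO, and 1.60 to 2.52 (median 1.95) in B6129SF2/J. All 11 C57BL/6 arrays lay above the median of FVB and of B2KO, and the differences were 0.97 ± 0.22 for C57BL/6 minus FVB and −0.96 ± 0.22 for B2KO minus C57BL/6. Irf9, the DNA-binding subunit of ISGF3, read 1.65 to 3.25 (median 2.49) in FVB, 2.21 to 3.45 (median 3.08) in C57BL/6, 0.52 to 2.95 (median 2.32) in B2KO, and 1.80 to 2.54 (median 2.10) in B6129SF2/J. Its difference was −0.85 ± 0.23 for B2KO minus C57BL/6 and −0.81 ± 0.23 for B6129SF2/J minus C57BL/6, and 10 of the 11 C57BL/6 arrays lay above the highest B6129SF2/J array. Stat2, its partner, read −0.51 to 2.03 (median 1.63) in FVB, 0.11 to 2.38 (median 1.78) in C57BL/6, −0.73 to 2.07 (median 1.55) in B2KO, and −0.35 to 1.69 (median 1.29) in B6129SF2/J and was called between no lines.

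**Figure D1:**
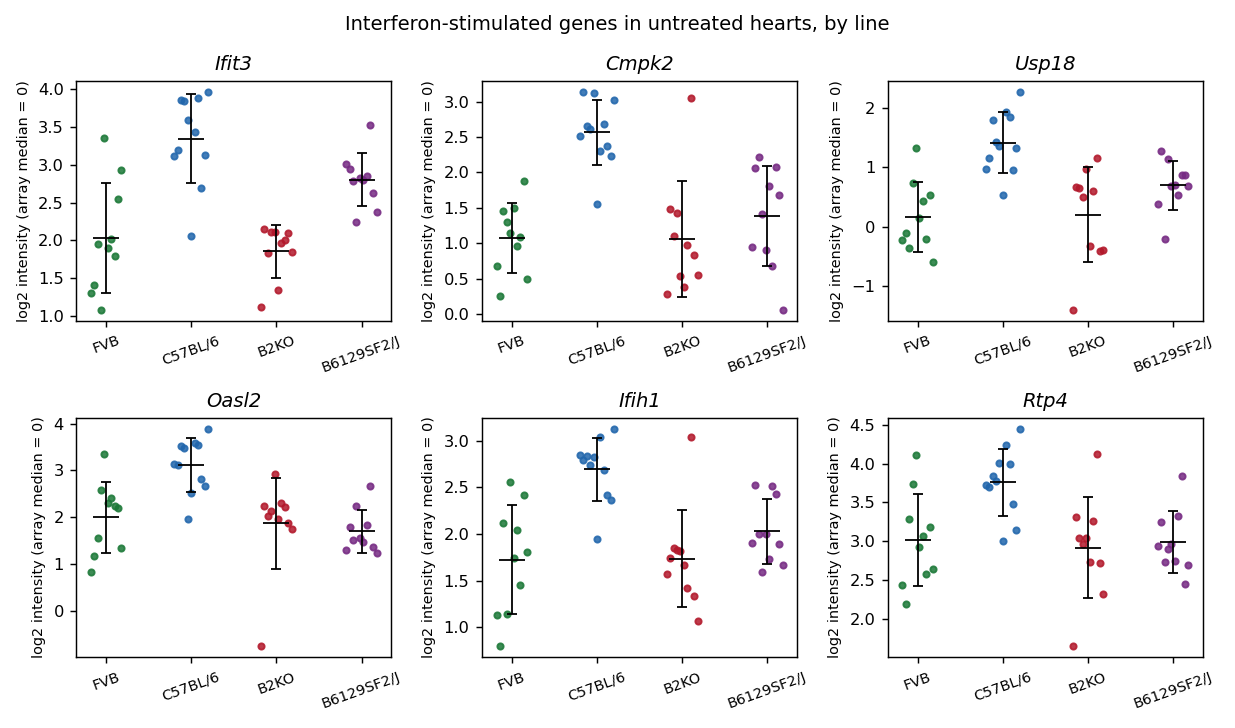
Log2 intensity of 6 members in single untreated hearts of the 4 lines (array median at 0), each point 1 array, with the group mean and SD in black. The C57BL/6 points sit higher at each of these genes, Cmpk2 at 1.55 to 3.14 against 0.26 to 1.88 in FVB, and groups overlap throughout.

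The remaining calls concerned 1 comparison each. Irgm1, a GTPase of interferon gamma-driven defence against vacuolar pathogens, read 1.94 to 3.96 (median 2.97) in FVB, 2.63 to 4.26 (median 3.86) in C57BL/6, 0.74 to 3.47 (median 2.88) in B2KO, and 2.36 to 3.17 (median 2.90) in B6129SF2/J and was −0.83 ± 0.27 in B2KO minus C57BL/6. That call was lost on leaving out any 1 of 8 arrays. Oas2, a synthetase of the 2′-5′-oligoadenylates that activate RNase L, read 1.47 to 3.52 (median 1.99) in FVB, 1.52 to 3.05 (median 2.62) in C57BL/6, 1.55 to 2.86 (median 2.30) in B2KO, and 0.61 to 2.11 (median 1.38) in B6129SF2/J. It was −0.98 ± 0.26 in B6129SF2/J minus C57BL/6, where 9 of the 11 C57BL/6 arrays lay above the highest B6129SF2/J array. Gbp2, a guanylate-binding protein, read 3.27 to 5.34 (median 4.30) in FVB, 4.02 to 5.61 (median 4.67) in C57BL/6, 3.70 to 5.75 (median 4.53) in B2KO, and 3.25 to 4.37 (median 3.87) in B6129SF2/J and was −0.90 ± 0.29 in the same comparison, with −0.63 on its other probe set. The Gbp2 call was lost on leaving out any 1 of 8 arrays. Eif2ak2, the double-stranded RNA kinase PKR, was 0.89 ± 0.28 in C57BL/6 minus FVB on the probe set chosen, but −0.06 and −1.14 on its other probe sets. It was −0.10, with an adjusted p of 0.759, once the probe sets were averaged, so its direction depends on the probe set. Between FVB and B2KO no member was called with limma and 0 of 30 had an unadjusted p under 0.05, where 0.0167% of all genes were called. Without the failed array the counts against C57BL/6 were 8 members higher than in FVB, and 9 lower in each of B2KO and B6129SF2/J, where 10.5%, 6.81% and 5.42% of all genes were called in those directions. After centring of the arrays on the genes tested they were 8, 9 and 11, where 9.77%, 7.47% and 6.81% of all genes were called.

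Some macrophage markers also differed between untreated lines. Adgre1, which marks mature macrophages, was 1.09 ± 0.20 in C57BL/6 minus FVB and −0.64 ± 0.20 in B6129SF2/J minus C57BL/6, and C1qb was −1.85 ± 0.27 in the latter. Of 12 macrophage markers, 1 was higher in C57BL/6 than in FVB, 3 were lower in B2KO and 3 lower in B6129SF2/J, with no call the other way, beside the 7.81%, 5.29% and 4.08% of all genes given above. The summed linear intensity of the 12 ran from 144 to 550 in untreated FVB, 277 to 726 in C57BL/6, 185 to 396 in B2KO and 259 to 406 in B6129SF2/J. Of the T and NK cell markers, Cd3d, Cd3g, Gzma, Gzmb, Ncr1 and Nkg7 were under the array median in every group, as were Siglech, Ly6d and Spib of the plasmacytoid dendritic cell markers. The part of macrophages in the baseline differences was not tested.

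Averaged over the 4 lines, isoproterenol raised 8 members and lowered 1. The 8 were Irf7, Zbp1, Oas1a, Rsad2, Ifitm1, Stat2, Usp18 and Oas2, with changes of 0.37 to 0.72, and the 1 that fell was Iigp1. Over all genes 8.45% rose and 13.5% fell in this comparison. The median change of the members was 0.29, beside −0.06 over all genes. Of the 30 members, 11 had a change above 0 in all 4 lines and 1, Iigp1, in none. Without the failed array, 15 members rose and 1 fell, where 14.6% of all genes rose, and the members added were Bst2, Eif2ak2, Ifi27, Ifit3, Ifitm3, Oasl2 and Rtp4. Without all 8 doubtful arrays 16 rose and 1 fell, where 17.5% of all genes rose. Treated and untreated arrays overlapped at every member in every line. Overlap was not counted over all genes, so this cannot be set against their share.

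**Figure D2:**
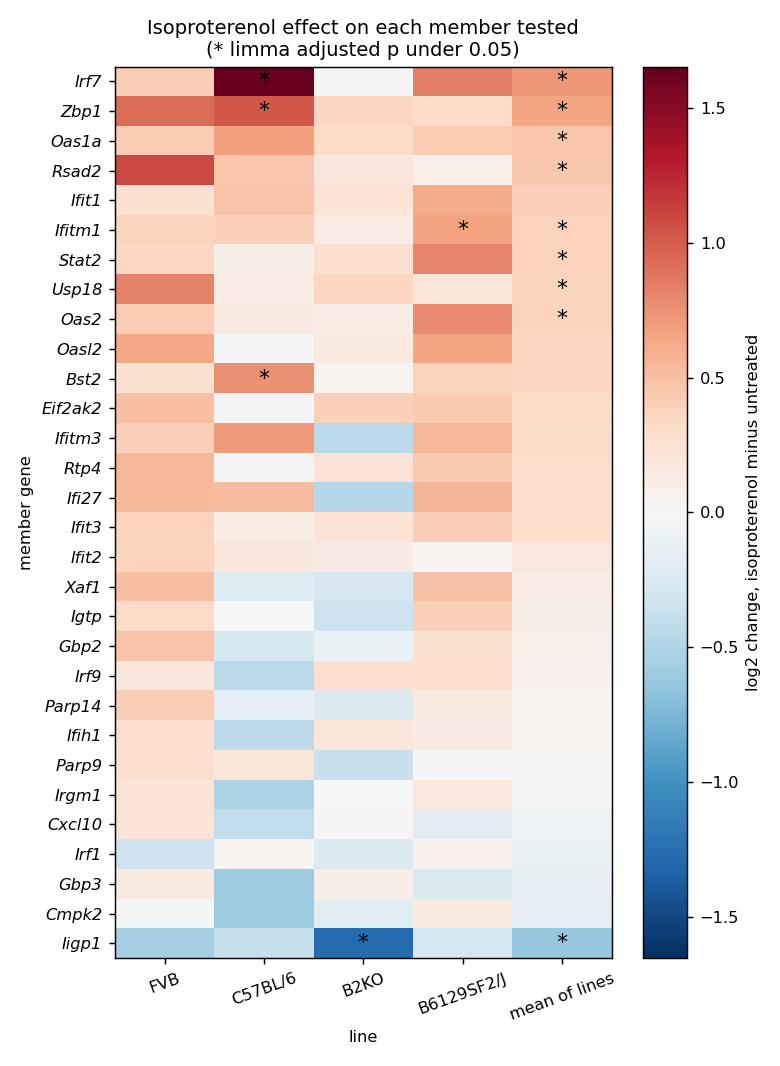
Log2 change, isoproterenol minus untreated, of the 30 members tested in each line and averaged over the lines, ordered by the averaged change, with stars at a limma adjusted p under 0.05. Irf7 in C57BL/6, at 1.65, is the strongest colour, most of the FVB and B6129SF2/J columns are above 0, and Iigp1 is below 0 in each line.

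Irf7 had the largest average change of the 30 members. Irf7, which amplifies type I interferon production, read 0.14 to 2.20 (median 0.80) in FVB, −1.40 to 1.53 (median 0.93) in C57BL/6, −0.72 to 1.40 (median 0.68) in B2KO, and −0.64 to 1.33 (median 0.68) in B6129SF2/J in untreated hearts. In treated hearts it read 0.17 to 1.98 (median 1.45) in FVB, 1.40 to 2.64 (median 2.39) in C57BL/6, −0.64 to 1.86 (median 0.63) in B2KO, and 0.41 to 2.41 (median 1.32) in B6129SF2/J. In C57BL/6, 9 of 10 treated arrays lay above the highest untreated array, whereas the B2KO groups covered nearly the same range. The change was 1.65 ± 0.29 in C57BL/6 with an adjusted p of 2.14e-05, 0.83 ± 0.29 in B6129SF2/J with 0.0757, 0.41 ± 0.29 in FVB with 0.664 and −0.02 ± 0.30 in B2KO with 0.972. Averaged over lines it rose by 0.72 ± 0.15, with an adjusted p of 0.00011. Stat2 read 0.67 to 2.53 (median 1.84) in FVB, −0.21 to 2.28 (median 1.87) in C57BL/6, −0.11 to 2.12 (median 1.77) in B2KO, and 1.48 to 2.38 (median 1.90) in B6129SF2/J after treatment. In B6129SF2/J all 12 treated arrays lay above the untreated mean and 10 above the highest untreated array, although the change of 0.81 ± 0.27 had an adjusted p of 0.0715. Averaged over lines Stat2 rose by 0.38 ± 0.14, with an adjusted p of 0.0374. On its other probe set that change was 0.07, and the averaged probe sets left it uncalled, at an adjusted p of 0.101. Irf9 changed by 0.07 ± 0.11 on average, and Irf1, the factor of the interferon gamma branch, by −0.12 ± 0.12, with neither called.

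Zbp1, Rsad2 and Usp18 rose on average over the lines. Zbp1, a sensor of Z-form nucleic acids that starts cell death, read −1.72 to 1.14 (median −0.20) in FVB, −1.32 to 0.93 (median 0.04) in C57BL/6, −1.87 to 0.37 (median −0.68) in B2KO, and −1.43 to 0.41 (median −0.47) in B6129SF2/J in untreated hearts. After isoproterenol Zbp1 read −1.05 to 1.96 (median 0.62) in FVB, −0.08 to 1.60 (median 1.10) in C57BL/6, −1.49 to 0.97 (median −0.16) in B2KO, and −1.06 to 0.69 (median −0.03) in B6129SF2/J. It rose by 1.03 ± 0.30 in C57BL/6, where 9 of 10 treated arrays lay above the untreated mean, and by 0.65 ± 0.15 on average, with adjusted p-values of 0.00935 and 0.000633. Its FVB change of 0.92 ± 0.29 had an adjusted p of 0.0975. Zbp1 had a group mean above the array median only in treated FVB (0.54) and treated C57BL/6 (0.99). It was thus tested only because of groups in which it rose. On its other probe set, with every group mean below the array median, the change was 0.75 in C57BL/6 and 0.17 on average. Rsad2, the radical SAM enzyme viperin, read 2.12 to 5.42 (median 3.71) in FVB, 3.83 to 5.87 (median 4.66) in C57BL/6, 3.13 to 4.61 (median 3.98) in B2KO, and 2.84 to 4.63 (median 3.96) in B6129SF2/J in untreated hearts. After isoproterenol Rsad2 read 3.89 to 5.82 (median 4.91) in FVB, 4.03 to 6.01 (median 5.21) in C57BL/6, 1.12 to 6.46 (median 4.18) in B2KO, and 3.05 to 5.30 (median 3.87) in B6129SF2/J. All 12 treated FVB arrays lay above the untreated FVB mean, and the change there was 1.09 ± 0.33, with an adjusted p of 0.0715 that fell to 0.0452 without the failed array. Averaged over lines Rsad2 rose by 0.45 ± 0.17, and its other probe sets gave 0.56 and 0.53. That call was lost on leaving out any 1 of 13 arrays. Usp18 read 0.34 to 1.70 (median 0.96) in FVB, 0.40 to 2.48 (median 1.48) in C57BL/6, −1.12 to 1.77 (median 0.59) in B2KO, and −1.19 to 1.87 (median 1.09) in B6129SF2/J in treated hearts and changed by 0.37 ± 0.14 on average, at an adjusted p of 0.0492 that exceeded 0.05 on leaving out any 1 of 51 arrays.

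Oas1a and Oas2 rose on average over the lines, and Oasl2 was not called. Oas1a, which senses double-stranded RNA, read 0.44 to 2.30 (median 1.45) in FVB, 0.50 to 2.17 (median 1.83) in C57BL/6, 0.32 to 1.97 (median 1.14) in B2KO, and 0.45 to 1.67 (median 1.13) in B6129SF2/J in untreated hearts. After isoproterenol Oas1a read −0.59 to 2.99 (median 1.86) in FVB, 1.48 to 2.77 (median 2.25) in C57BL/6, −0.21 to 2.87 (median 1.58) in B2KO, and 0.04 to 2.38 (median 1.56) in B6129SF2/J, with a change above 0 in all 4 lines. It rose by 0.46 ± 0.14 on average, and 6 of 10 treated C57BL/6 arrays lay above the highest untreated one. Oas2 read 1.58 to 3.70 (median 2.66) in FVB, 1.81 to 3.62 (median 2.56) in C57BL/6, 0.60 to 3.24 (median 2.67) in B2KO, and 1.28 to 2.88 (median 2.41) in B6129SF2/J in treated hearts and rose by 0.37 ± 0.13 on average, with 0.78 ± 0.26 in B6129SF2/J at an adjusted p of 0.0612. Oasl2 changed by 0.36 ± 0.16, uncalled with all arrays and called without the failed one, at an adjusted p of 0.0322. The IFIT genes had average changes of 0.39 for Ifit1, 0.28 for Ifit3 and 0.18 for Ifit2, none called with all arrays. Ifit1 had a wide spread, from −1.35 to 2.69 in untreated FVB alone. The dim members Oas3, Oasl1, Mx1, Mx2 and Dhx58, of which MX1 and MX2 are GTPases against viruses and DHX58 is the RNA sensor LGP2, had group means between −2.19 and −0.21, and none was called when the filter was lifted.

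Among the membrane proteins, Ifitm1 rose in B6129SF2/J and Bst2 in C57BL/6. Ifitm1, an antiviral protein that stops fusion of virus and cell membranes, read 0.55 to 3.10 (median 2.33) in FVB, 1.05 to 3.10 (median 2.12) in C57BL/6, 1.24 to 2.78 (median 2.09) in B2KO, and 1.83 to 2.81 (median 2.11) in B6129SF2/J in untreated hearts. After isoproterenol Ifitm1 read 1.57 to 3.10 (median 2.51) in FVB, 2.17 to 3.48 (median 2.49) in C57BL/6, 1.57 to 2.97 (median 2.06) in B2KO, and 2.16 to 3.69 (median 2.89) in B6129SF2/J. In B6129SF2/J, 11 of 12 treated arrays lay above the untreated mean and 8 above the highest untreated array. It rose there by 0.67 ± 0.21, the only member called in that line, at an adjusted p of 0.0499, where 2.42% of all genes rose and 2.1% fell. The call was lost on leaving out any 1 of 18 arrays. Without the failed array, which is of another line but enters the shared spread, 5 members were called higher in B6129SF2/J, Ifitm1, Irf7, Stat2, Oas2 and Ifi27, where 4.09% of all genes rose. Averaged over lines Ifitm1 rose by 0.39 ± 0.11. Bst2, or tetherin, which holds budding virus on the cell surface, read 1.73 to 3.63 (median 2.64) in FVB, 0.93 to 3.87 (median 2.72) in C57BL/6, 0.06 to 3.23 (median 2.39) in B2KO, and 1.75 to 2.94 (median 2.62) in B6129SF2/J in untreated hearts. After isoproterenol Bst2 read 1.65 to 3.81 (median 2.95) in FVB, 3.02 to 4.21 (median 3.26) in C57BL/6, 0.25 to 3.07 (median 2.47) in B2KO, and 2.29 to 3.69 (median 2.86) in B6129SF2/J. In C57BL/6 all 10 treated arrays lay above the untreated mean, and it rose by 0.75 ± 0.28 with an adjusted p of 0.0446, lost on leaving out any 1 of 11 arrays. Ifitm3, the endosomal member of its family, changed by 0.70 in C57BL/6, 0.55 in B6129SF2/J, 0.39 in FVB and −0.45 in B2KO, uncalled in each. Without the failed array, which read 1.72 where the next array read 6.89, the Ifitm3 change was 0.14 in B2KO, and that in C57BL/6 was called, at an adjusted p of 0.0068. Under either other scaling of the arrays the sign of the B2KO value is not stable for 7 of the 30 members.

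Of the GTPases of the interferon gamma branch, Iigp1 fell on average. Iigp1, an immunity-related GTPase that attacks parasite vacuoles, read 4.63 to 7.03 (median 5.78) in FVB, 4.35 to 6.58 (median 5.51) in C57BL/6, 4.71 to 6.65 (median 5.57) in B2KO, and 4.93 to 6.02 (median 5.61) in B6129SF2/J in untreated hearts. After isoproterenol Iigp1 read 3.19 to 7.24 (median 5.39) in FVB, 4.46 to 5.97 (median 5.08) in C57BL/6, 0 to 5.66 (median 4.53) in B2KO, and 4.10 to 6.44 (median 5.28) in B6129SF2/J. Of 10 treated B2KO arrays, 9 lay below the untreated mean and 5 below the lowest untreated array, and the lowest was the failed array at a level near 0. The change was −1.27 ± 0.37 in B2KO with an adjusted p of 0.0483, the 1 member that fell there, where 1.72% of all genes fell and 0.0836% rose. Without the failed array it was −0.80, with an adjusted p of 0.282, and the call was lost on leaving out any 1 of 13 arrays. The average over lines fell by 0.62 ± 0.18, with an adjusted p of 0.00753, and was −0.50 with 0.00659 without the failed array. Its other probe set gave −0.50. Igtp and Irgm1, of the same family, changed by 0.09 ± 0.16 and −0.03 ± 0.14, and the guanylate-binding proteins Gbp2 and Gbp3 by 0.08 ± 0.14 and −0.14 ± 0.12, none called. Cxcl10, the chemokine that draws T cells, was near the array median and changed by −0.09 ± 0.12. Parp9 and Parp14, ADP-ribosyltransferases that interact with STAT signalling, changed by 0.02 and 0.04, and Ifi27, a mitochondrial and nuclear envelope protein, by 0.29 ± 0.14.

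In FVB no member was called with limma, where 1.51% of all genes were called, 5 of 30 had an unadjusted p under 0.05, and 27 of 30 changes were above 0. The median member change in FVB was 0.37, beside −0.01 over all genes, and in B6129SF2/J 0.34 beside −0.02. In B2KO it was 0.12 beside −0.28, and 0.18 beside −0.08 without the failed array. Without the 8 doubtful arrays 3 members rose in FVB, Rsad2, Zbp1 and Ifi27, where 4.36% of all genes rose. Without the 3 arrays failed or in doubt by strain, their limma adjusted p-values were 0.00957, 0.0256 and 0.0284. The share of all genes called in that setting is not given here. The member median there was 0.39, beside 0.015 over all genes.

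In C57BL/6, Irf7, Zbp1 and Bst2 rose and none fell, where 12.5% of all genes rose and 6.98% fell. When the failed array was left out, Ifi27 and Ifitm3 rose as well, making 5, where 17.9% of all genes rose and 9.16% fell. Without 3 arrays Oas1a was added and Gbp3 fell, giving 6 and 1, where 18.5% rose and 9.35% fell. Without 8 arrays 6 rose and none fell, where 24% rose and 9.36% fell. The median of the members was 0.07, beside 0.09 over all genes, and 16 of 30 changes were above 0. Of the 12 members called higher in untreated C57BL/6 than in some other line, 9 had a change below 0 and 3 above 0 in this line, from −0.60 for Cmpk2 to 0.15 for Oas2, none called. Cmpk2 read 1.55 to 3.14 (median 2.62) untreated and 1.16 to 3.21 (median 1.71) treated. These changes and the baseline differences share the untreated C57BL/6 arrays. The centring of the arrays moved this comparison, since the C57BL/6 median over all genes was 0.09 as deposited and −0.07 with arrays centred on the genes tested. After that centring 3 members rose, the same 3, and 3 fell, Cmpk2 by 0.77, Irgm1 by 0.67 and Irf9 by 0.61 on the log2 scale, where 12.2% of all genes rose and 17% fell. Quantile normalization gave 4 higher and 2 lower, where 10.8% of all genes rose and 13.7% fell. Of the 30 members 5 had another sign in C57BL/6 under each of these scalings.

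The isoproterenol effect on Irf7 differed between lines. The mean effect in FVB and B2KO minus that in C57BL/6 was −1.46 ± 0.36 for Irf7, with an adjusted p of 0.00574, the only member called of 30, where 6.83% of all genes were called in that direction and 2.01% in the other. Irf9, without the failed array, was called the other way, at 0.79 with an adjusted p of 0.0293, and it was also called without 3 arrays. Without 8 arrays Irf9, Ifih1 and Gbp3 were. Over all genes 7.28%, 6.02% and 13.7% were then called in the direction of Irf7, and 2.42%, 2.31% and 3.61% in the other. Between B2KO and C57BL/6 alone the difference for Irf7 was −1.68 ± 0.42, with an adjusted p of 0.00824, where 8.94% of all genes were lower and 1.61% higher, and it was −1.19 with an adjusted p of 0.0504 after the arrays were centred. Both comparisons share the C57BL/6 arrays. Over all genes their medians were −0.26 and −0.41 with all arrays, and −0.14 and −0.19 without the failed one. The medians of the members were 0.18 and −0.05 with all arrays, and 0.25 and 0.19 without the failed one. In the other direction, Irf9, Ifih1 and Irgm1 had effects that were 0.68, 0.66 and 0.62 above that of C57BL/6, uncalled as deposited and called after centring, when 4 members were higher, where 6.79% of all genes were. For the effects of C57BL/6 minus FVB, B2KO minus FVB, B6129SF2/J minus FVB, B6129SF2/J minus C57BL/6 and B6129SF2/J minus B2KO, no member was called with limma, and 3, 1, 1, 2 and 3 of 30, in that order, had an unadjusted p under 0.05. Over all genes 1.7%, 0%, 0.0167%, 5.65% and 0.092% were called.

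**Figure D3:**
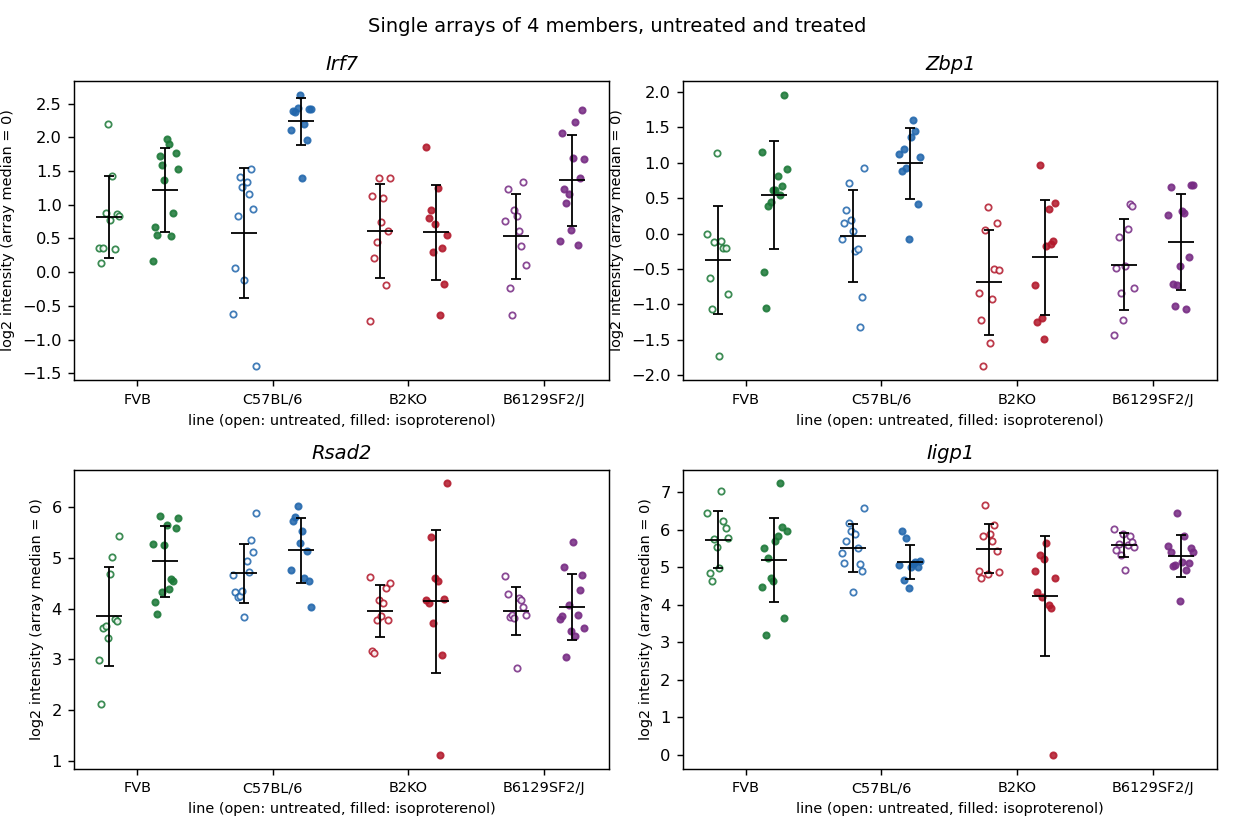
Log2 intensity (array median at 0) of Irf7, Zbp1, Rsad2 and Iigp1 on single arrays, untreated in open and isoproterenol in filled points, with group mean and SD in black. Treated C57BL/6 points of Irf7 start at 1.40 while untreated ones reach down to −1.40, and in treated B2KO 1 array lies far below the others at Rsad2, replicate 7 at 1.12, and another at Iigp1, the failed replicate 10.

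Xaf1, a proapoptotic gene, gave opposite differences on its probe sets. On the probe set chosen it read 2.13 to 4.08 (median 3.54) in FVB, 2.90 to 4.95 (median 3.90) in C57BL/6, 2.38 to 3.68 (median 3.26) in B2KO, and −0.16 to 3.53 (median 2.24) in B6129SF2/J in untreated hearts. After isoproterenol Xaf1 read 2.53 to 4.79 (median 4.06) in FVB, 2.85 to 4.41 (median 3.68) in C57BL/6, −0.26 to 4.44 (median 3.44) in B2KO, and −1.36 to 4.01 (median 2.75) in B6129SF2/J. The difference of untreated B6129SF2/J was −1.90 ± 0.40 from C57BL/6 and −1.35 ± 0.41 from FVB, called with adjusted p-values of 0.000864 and 0.0275, the latter the 1 member lower than in FVB, where 2.22% of all genes were lower. On its other probe set the same differences were 2.10 and 2.24, the opposite way, and averaging both gave 0.10 and 0.45, uncalled. Of the 22 B6129SF2/J arrays, 5 read at least 3 on the first and under 1 on the second, as did 17 of 22 in FVB, 17 of 21 in C57BL/6 and 17 of 20 in B2KO. Another 3 read −1.36 to 0.32 on the first and 3.47 to 4.71 on the second. The remaining 14 had 1.41 to 3.09 on the first together with 2.60 to 3.75 on the second. Outside that line only treated B2KO replicate 7, one of the arrays in doubt by strain, read high on the second probe set, at 3.37, and low on the first, at −0.26. The SD of the chosen probe set within treatment groups was 1.27 in B6129SF2/J, 1.17 in B2KO, 0.64 in FVB and 0.54 in C57BL/6. These sets of arrays were counted after their values were seen, and the sequence under either probe set was not analysed here.

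**Figure D4:**
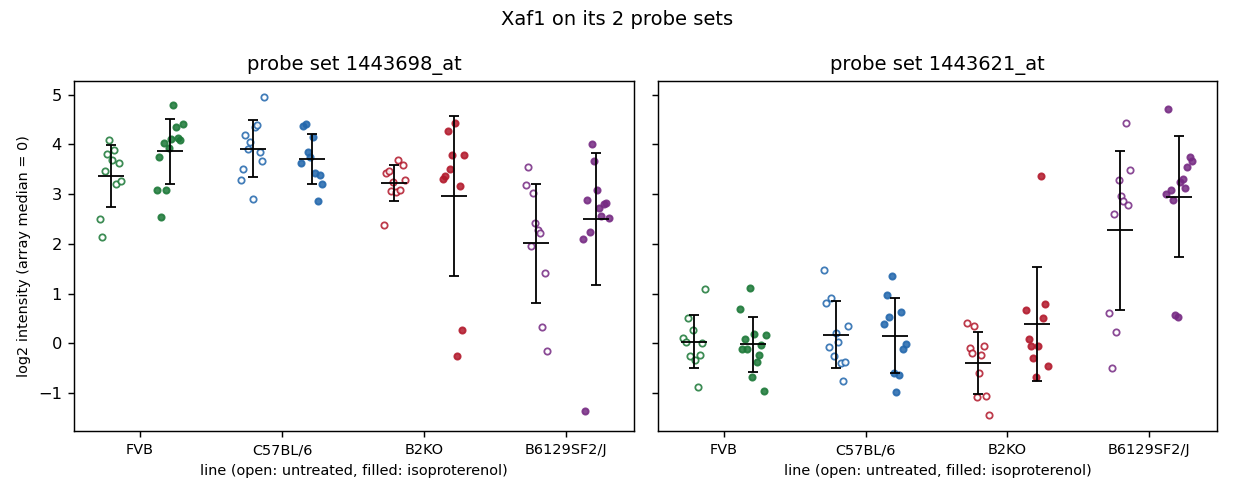
Log2 intensity (array median at 0) of Xaf1 on its 2 probe sets, single arrays, untreated in open and isoproterenol in filled points, with group mean and SD. In B6129SF2/J the arrays spread from −1.36 to 4.01 on the first probe set and are mostly above 2.60 on the second, where the other lines reach at most 1.48 apart from 1 B2KO array at 3.37.

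Some arrays were the highest or lowest of their group at many members at once. Untreated C57BL/6 replicate 6 was the lowest of its group at 18 of the 30 members and treated FVB replicate 3 at 17, with medians of −0.85 and −0.89 below their group means. At the other end, untreated C57BL/6 replicate 11 and untreated B6129SF2/J replicate 8, both with shortened RNA, were the highest of their groups at 19 and 17 members, as was untreated FVB replicate 5 at 17 and treated B2KO replicate 3 at 15. Over all genes tested, not the members alone, the median SE of the change was 0.25 to 0.26 in each line.

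**Figure D5:**
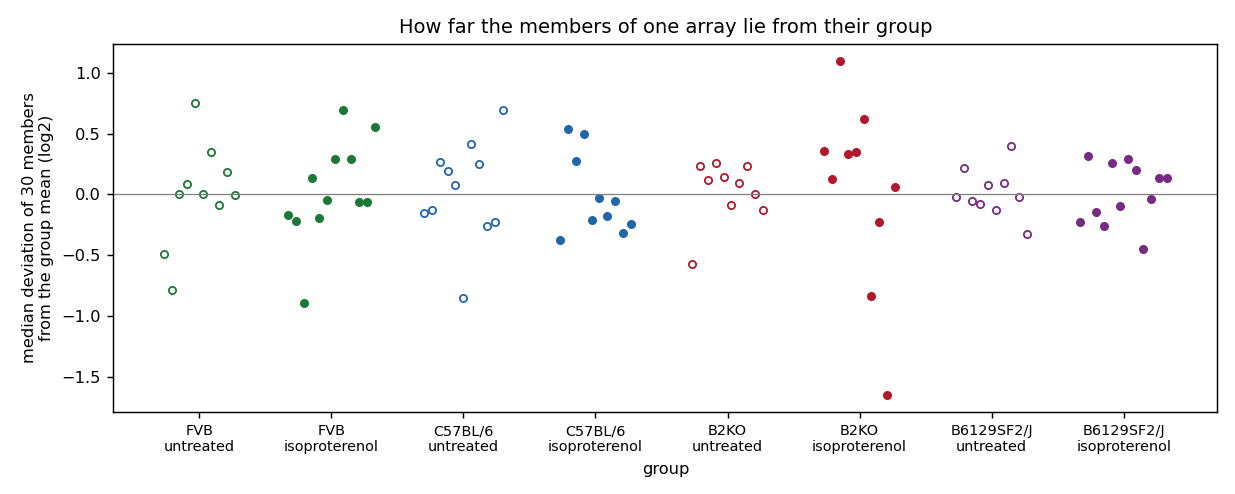
Median deviation of the 30 members from their group mean (log2) on each array, by line and treatment, open for untreated and filled for isoproterenol. The failed treated B2KO array is at −1.65, and untreated C57BL/6 replicate 6 and treated FVB replicate 3 are at −0.85 and −0.89.

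Upstream of the members, the interferon genes were read at low levels. Of 12 ligand genes listed, 7 were on the array, Ifna1, Ifna2, Ifna4, Ifna5, Ifnab, Ifnb1 and Ifng, and each was under the array median in every group. Of 9 receptor and Janus kinase genes, Ifngr1 rose in C57BL/6, by 0.94 ± 0.28, and on average Ifnlr1 and Il10rb fell, by 0.53 and 0.42 on the log2 scale. Of 7 further STAT and IRF factors tested, 3 rose in C57BL/6: Stat3, the factor of the interleukin 6 branch, by 1.91 ± 0.37, Irf5 by 0.95 ± 0.25 and Irf3, the kinase-activated factor of nucleic acid sensing, by 0.52 ± 0.19. On average Stat3, Irf8 and Irf5 rose and Stat5a fell. Of 12 sensors and adaptors tested, 2 rose in C57BL/6 and Cgas, the DNA sensor, fell, by 0.91. Of 10 negative regulators, Socs3, a feedback inhibitor of cytokine receptors, rose by 0.52 ± 0.12 on average and Pias4 by 0.33 ± 0.13, and Samhd1 fell by 0.27. Beside these counts, 12.5% of all genes rose and 6.98% fell in C57BL/6, and 8.45% rose and 13.5% fell on average. Sensors differed at baseline too, where Ddx58, the RNA sensor RIG-I, and Sting1 were 0.66 and 0.70 higher in C57BL/6 than in FVB.

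Interferon-induced genes outside the members were also examined. Of 40 tested, 9 rose and 2 fell with isoproterenol on average, beside 8.45% and 13.5% of all genes. The largest rises were Ube2l6, the E2 enzyme of ISG15 conjugation, by 1.07 ± 0.19, Lgals3bp by 0.75 ± 0.17, and Lgals9 and Epsti1 by 0.59 and 0.59, while Ifit1bl1 and Ifi35 fell by 0.50 and 0.28. In FVB 2 of the 40 rose, Ube2l6 by 1.41 ± 0.37 and Lgals3bp by 1.29 ± 0.33, where 1.51% of all genes were called in either direction. In C57BL/6 4 rose and 4 fell, a share each way near the 12.5% and 6.98% of all genes. The chemokine Cxcl9 fell by 1.42 there, Ddx60 by 1.19 and Phf11d by 0.88, and Ube2l6 rose by 1.25. At baseline 9 of the 40 were higher in C57BL/6 than in FVB and 2 lower, beside 7.81% and 4.39% of all genes. The largest were Mndal at 5.66, Trim34a at 4.14, Cxcl9 at 3.49 and Ifi213 at 1.59, and Gbp6 and Ifi30 were −1.21 and −0.80. The median of the 40 was 0.24 there, beside 0.03 over all genes.

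Markers of other cells moved with treatment as well. Of 12 macrophage markers 4 rose on average and none fell, where 8.45% of all genes rose and 13.5% fell. The 4 were Fcgr1, by 0.75 ± 0.15, C1qc by 0.55 ± 0.16, Cd68 by 0.51 ± 0.18 and Adgre1 by 0.36 ± 0.10. Their summed linear intensity ran from 224 to 815 in treated FVB, 322 to 821 in C57BL/6, 187 to 764 in B2KO and 335 to 639 in B6129SF2/J, against the untreated ranges given above. In C57BL/6, 6 of 8 endothelial markers rose, Cldn5 by 1.51 and Eng by 1.37, where 12.5% of all genes rose. Their sum ran from 107 to 280 untreated and 234 to 511 treated. Several other lists had higher median sums there too. Treated against untreated, these were 1573 and 894 for fibroblast, 16238 and 10690.5 for cardiomyocyte, and 1485 and 914 for adipocyte markers. The median sums of T and NK, B and plasmacytoid dendritic cell markers were slightly lower in treated C57BL/6. All 3 neutrophil markers tested rose on average, S100a9 by 1.22 ± 0.28 and S100a8 by 1.15 ± 0.23, where 8.45% of all genes rose. Ngp, Camp, Ltf and Mpo were under the array median in every group. The part of these cells in the members' changes was not tested.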

How the data were processed

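Microarray intensities were deposited by the authors as linear values of 86 arrays, made with GCRMA per the submitters' processing notes, whose version is not given in the sources used here, and every array had a median of 1. Of 45101 probe sets, 64 controls, 9160 without a symbol and 932 with several were left out, and 99.4% of the rest matched RefSeq by Entrez gene identifier. The log2 of the deposited intensity was used. Each gene kept its probe set with the highest mean across the 8 groups, and genes with every group mean under 0 (log2) were left out. Differences came from limma 3.58.1 in R 4.3.3, with 1 mean per group and no covariate, adjusted by Benjamini-Hochberg; the fit was tested on simulated data. The number of arrays limits the precision. The replicate numbers were checked and do not pair arrays. Alternatives were other scalings, filters and probe set rules, a replicate block, and arrays left out. By the naming rule, values in every group are given for members called in a comparison (up to the 6 with the largest change) and for ISGF3 and its feedback, and up to 4 called genes each way from other lists. Members and lists were chosen with earlier results of these data known.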

Additional observations from a re-analysis of the deposited data

Results flagged for a closer look

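The isoproterenol effect on Irf7 differed between lines by the limma test of the difference itself: it was −1.46 (log2) for the mean of FVB and B2KO minus C57BL/6, and −1.68 for B2KO minus C57BL/6. Over all genes the medians of these differences were −0.26 and −0.41. The second was not called after the arrays were centred.

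Single arrays stood apart from their group by Dixon's criterion in 22 cases of 150 groups tested, over 9 arrays, where chance flags about 1 in 20 groups. Only groups of at most 10 arrays were tested, so untreated C57BL/6, treated FVB and treated B6129SF2/J were not. The failed array, treated B2KO replicate 10, was the low one in 10 of these cases, with Bst2 at 0.25, Ifi27 at 0.12, Ifit2 at 0.08, Ifitm3 at 1.72, Iigp1 at 0.0, Irf1 at 0.59, Irgm1 at 0.18, Parp14 at −0.09, Parp9 at 0.75 and Stat2 at −0.11. Its group's next array was at 6.89 for Ifitm3 and 3.92 for Iigp1. Untreated B2KO replicate 8, with shortened RNA, was high at Cmpk2 (3.05) and Ifih1 (3.04) and low at Bst2 (0.06). Untreated B2KO replicate 1 was low at Irgm1 (0.74), Oasl2 (−0.75) and Xaf1 (2.38). The other cases were Bst2 at 1.75 in untreated B6129SF2/J replicate 3, Rsad2 at 2.84 in untreated B6129SF2/J replicate 6, Parp14 at 3.93 in treated C57BL/6 replicate 4 and at 1.30 in untreated FVB replicate 2, and Stat2 at −0.21 in treated C57BL/6 replicate 8 and at −0.51 in untreated FVB replicate 10.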

How the results depend on the processing

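Counts are of members called, main value first, of 30 tested, but of 35 with no filter and of 25 with the stricter filter. Members that the stricter filter left out, Zbp1 among them, could not be called there. In FVB 0 became 1 under quantile normalization, centring, averaged probe sets or without the failed array, and 3 without 3 or 8 arrays. In C57BL/6 3 became 6 with quantile normalization, centring or without 8 arrays, 1 with the stricter filter, 5 without the failed array or with only its groups, and 7 without 3. In B2KO 1 became 0 with quantile normalization, centring, no filter, averaged probe sets, only its groups, or without the failed, 3 or 8 arrays. In B6129SF2/J 1 became 3 with quantile normalization, 5 with centring or without the failed, 3 or 8 arrays, 0 with no filter or the stricter one, 2 with averaged probe sets and 8 with only its groups. Averaged over lines 9 became 16 with centring or without the failed array, and 17 without 3 or 8. For the effects of FVB and B2KO minus C57BL/6, 1 became 4 with quantile normalization or without 8, 5 with centring, and 2 without the failed or 3. B2KO minus C57BL/6 went from 1 to 3 with either scaling or without 8, and 2 without the failed or 3. C57BL/6 minus FVB went from 0 to 1 with centring. B6129SF2/J minus C57BL/6 went from 0 to 1 with either scaling or only its groups, and 2 without 8. Untreated B6129SF2/J minus FVB went from 2 to 4 with either scaling and 1 with no filter or averaged probe sets, minus C57BL/6 from 7 to 11 with centring or only its groups and 4 averaged, and minus B2KO from 1 to 3 with quantile normalization or without the failed array, 4 with centring, without 3 or with only its groups, and 2 averaged or without 8. The share of all genes called moved with the setting too, so a higher count is not by itself a result about the members. In C57BL/6, 12.5% of all genes rose with all arrays and 24% without 8. In B6129SF2/J it was 2.42%, and 4.09% without the failed array. Averaged over lines it was 8.45%, 14.6% without the failed array and 17.5% without 8. The causes were not tested.

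Averaged probe sets reversed Eif2ak2 in untreated C57BL/6 minus FVB (−0.10) and Xaf1 in untreated B6129SF2/J minus FVB (0.45) and minus C57BL/6 (0.10). In all, 41 named results were each read again under every alternative without single arrays left out, so each counts several times. Of these readings, 416 kept direction and call, 26 lost the call, and the 3 just named were reversed. Leaving out 1 array of the compared groups gave 0 to 2 members in FVB, 2 to 3 in C57BL/6, 0 to 1 in B2KO, 0 to 2 in B6129SF2/J and 7 to 16 averaged, where 16 is without the failed array; 1 to 2 for both differences with C57BL/6; and, untreated, 0 to 2 for B6129SF2/J minus FVB, 1 to 2 minus B2KO and 5 to 9 minus C57BL/6, 5 to 8 for C57BL/6 minus FVB and 6 to 9 for B2KO minus C57BL/6. The replicate numbers share only a number: with the replicate block (consensus correlation 0.00147) untreated B6129SF2/J minus C57BL/6 had 8 members and the other counts were as without it.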
